A study of Montastraea cavernosa with 311 samples.

Results

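The genes described here are the RNA helicases and splicing factors of the reef-building coral Montastraea cavernosa. They were chosen by name from the study's own annotation: host isogroups (groups of transcripts treated as 1 gene) whose name, in any case, contains dead box, dead (asp, deah, splic, small nuclear ribonucleoprotein, pre-mrna or rna helicase. This gave 159 of 15501 named host isogroups, and 139 of them have counts among the 17901 host isogroups counted. Sorted by those words into families, 39 members were DEAD box helicases (34 with counts), 21 DEAH box helicases (15), 11 other RNA helicases (10), 17 small nuclear ribonucleoproteins or snRNPs (16), 16 pre-mRNA processing factors (16) and 55 splicing factors by name (48). The wording also let in a few proteins of other roles, among them a nuclear pore component (Mcavernosa24180), 2 tRNA-splicing proteins (Mcavernosa10856 and Mcavernosa29690) and 3 heparan sulfate glycoproteins (Mcavernosa12649, Mcavernosa12654 and Mcavernosa28316). For 73 members another member carries the same name, so reads of close copies may have been split between them.

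Sequence tags from the 3' end of transcripts were counted in libraries of coral tissue, each holding the coral and its Cladocopium algae. Most came from wild colonies of 4 reef sites, given in the labels as WFGB, EFGB, PRTER and CBC, each sampled at shallow and at mesophotic depth, the low-light reef below the shallow zone. The other libraries, 46 in all, came from an experiment at WFGB and EFGB with 3 arms, a transplant, a mesophotic control and a shallow control, each sampled at a time labelled 6 and a time labelled 12, with no unit given. Libraries with at least 20000 host counts were kept, which left 35 shallow and 28 mesophotic at WFGB, 39 and 21 at EFGB, then 31 and 41 at PRTER, with 36 and 22 at CBC. The experiment kept 8 transplant, 7 mesophotic control and 10 shallow control libraries at time 6, and 5, 6 and 9 at time 12. It was fitted with 7, 8 and 9 natural libraries whose title tag recurs in the transplant, mesophotic control and shallow control arms, which serve as baselines. The labels of these baselines give a depth but no arm. The baselines of the transplants and of the mesophotic controls are labelled mesophotic, and those of the shallow controls shallow. The libraries are of wild colonies with no genotype or age given, and each arm pools WFGB with EFGB. No label says that the libraries of a group came from separate colonies, so p-values measure the spread between libraries.

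Messenger RNA precursors are spliced by the spliceosome, which is built from snRNPs. U1 binds the start of an intron, U2 with its SF3a and SF3b proteins binds the branch site, and the joint particle of U4, U6 and U5 then enters and is remodelled into the active enzyme. DEAD and DEAH box proteins are ATP-driven RNA helicases: some drive the steps of splicing, others act in ribosome assembly, translation, export or antiviral sensing. SR proteins, rich in serine and arginine, bind exons and help to choose splice sites.

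How many of these genes could be seen differed between libraries and groups. Kept libraries had a median of 139933 host counts, with a lowest of 20003. The share of host counts on members had a median of 0.540% over libraries (lowest 0.164%, highest 2.22%), and a median of 23 of the 139 had any count in a library (lowest 3, highest 69). The median number detected was 44 in shallow and 35.5 in mesophotic WFGB libraries and 37 in shallow EFGB libraries. It was 18 in mesophotic EFGB, 21 in shallow and 19 in mesophotic PRTER, and 15 in shallow and 14.5 in mesophotic CBC libraries. All detected host isogroups followed the same order at WFGB and EFGB, with medians of 4449 and 3739.5 at WFGB and 3570 and 1782 at EFGB for shallow and mesophotic, against 1753 and 1820 at PRTER and 1257 and 1244.5 at CBC. The libraries with the most detected isogroups were not those with the most reads, since median host counts were 53608 and 52230.5 at WFGB, 62803 and 194521 at EFGB, then 308986 and 243070 at PRTER, with 267064 and 188602 at CBC. In coral tissue, fewer cells of a type and less RNA per cell cannot be told apart.

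A few members carried most of the signal. The top member held 20.4% of all member counts in natural libraries and the top 10 held 64.7%. Of the 139 members, 3 had a count in at least 80% of natural libraries, 17 in at least 50% and 46 in under 5%, and 36 had over 50% of their counts in 1 library. A member was tested only if it had a count in at least 20% of the fitted libraries, which 48 members did (34.5%, against 24.5% of host isogroups) in the natural libraries and 56 (40.3%, against 27.4%) in the experiment. The other 91 and 83 were too sparse to test. Of the tested 48, 9 were DEAD box, 6 DEAH box and 3 other helicases, 6 snRNP proteins, 9 pre-mRNA processing factors and 15 splicing factors by name.

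**Figure D1:**
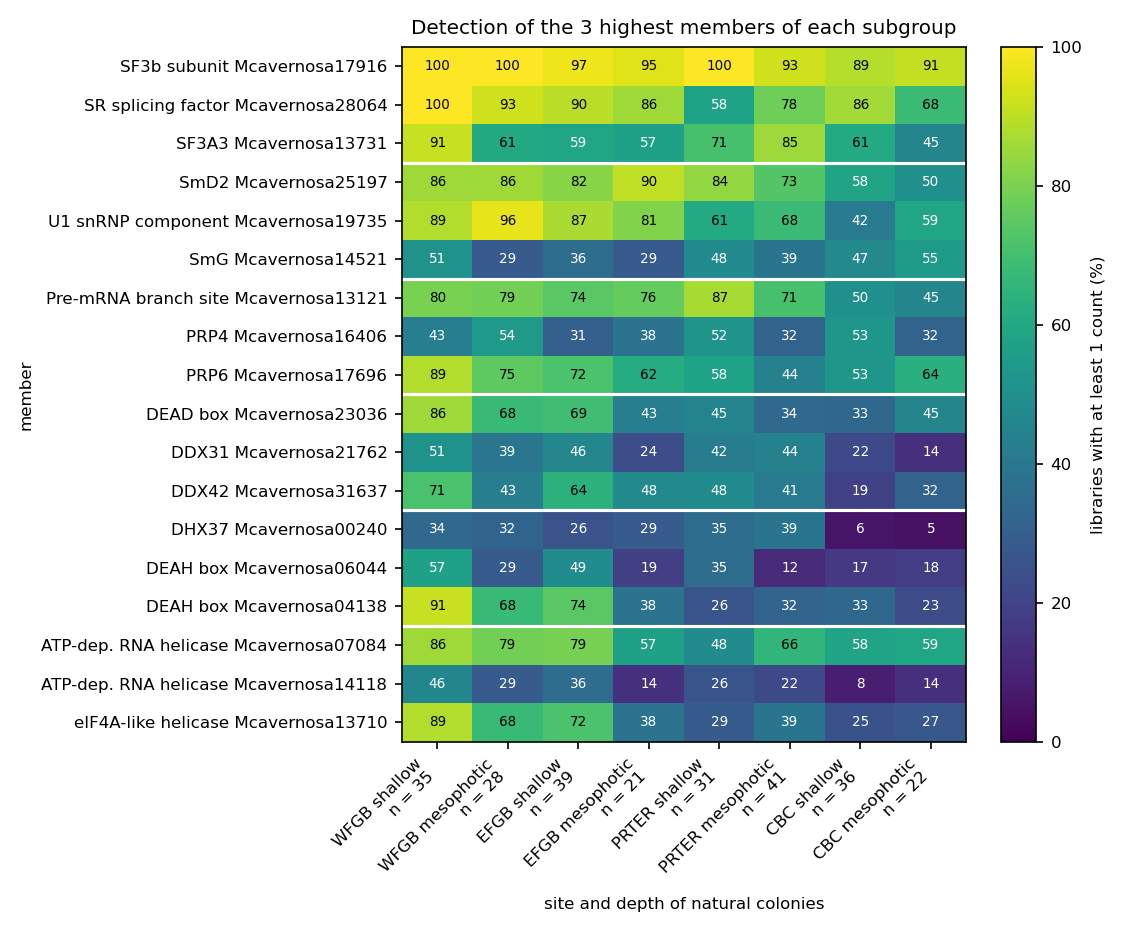
Percent of kept natural libraries with at least 1 count (colour and printed values) for the 3 members of each family with the highest mean level, in rows, across the 8 groups of site and depth, in columns. The SF3b subunit at 95.7% of all libraries stands above the other members, and each helicase but DHX37 has its highest percent in shallow WFGB libraries.

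Levels are given as CPM, the usual scaling of counts to a common library total, here the total of host counts. A 3' tag is counted about once per transcript, so CPM was not divided by gene length. Levels are listed for shallow and then mesophotic libraries of each site.

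The U2 snRNP held the member with the highest level. This was a splicing factor 3b subunit (Mcavernosa17916), part of the complex that grips the branch site, with a mean of 1119 CPM over the 8 groups and a count in 95.7% of natural libraries. Its lowest, median and highest CPM were 20.98, 577.5 and 2110 in shallow WFGB libraries and 166.6, 676.5 and 3752 in mesophotic WFGB libraries. At EFGB they were 0, 646.8 and 2764 in shallow and 0, 1702 and 5664 in mesophotic libraries. At PRTER they were 2.64, 1264 and 3722 against 0, 728.3 and 3937. At CBC they were 0, 565.6 and 5535 against 0, 698.0 and 5553. The order of the medians ran from shallow CBC to mesophotic EFGB, and the ranges of all 8 groups overlapped. SF3A3 (Mcavernosa13731), a subunit of the partner complex SF3a, had a mean of 287.3 CPM. Its medians were 186.5 and 30.5 CPM at WFGB, 35.9 and 109.7 at EFGB, then 29.8 and 279.7 at PRTER, with 74.2 and 0 at CBC. It was thus higher in the shallow median at WFGB and CBC and in the mesophotic median at EFGB and PRTER. An isogroup named for the pre-mRNA branch site (Mcavernosa13121) had a mean of 277.3 CPM and medians of 66.2 and 47.8 CPM at WFGB, 62.7 and 42.6 at EFGB, then 128.5 and 20.1 at PRTER, with 1.74 and 0 at CBC.

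Among the snRNP proteins, SmD2 (Mcavernosa25197), a subunit of the protein ring around each spliceosomal RNA, had a mean of 423 CPM. Its median was 102.4 CPM in shallow and 113.8 in mesophotic WFGB libraries, 69.0 and 569 at EFGB, then 386.6 and 228.8 at PRTER, with 51.5 and 3.51 at CBC. Its highest value was 7641 CPM, in a shallow PRTER library. U1-C (Mcavernosa19735), a protein of the U1 snRNP, which recognises the start of the intron, had a mean of 292.7 CPM and its highest medians at WFGB (201.5 and 172.3 CPM) and EFGB (204 and 397.8 CPM), against 22.9 and 62.9 at PRTER and 0 and 6.21 at CBC. SmG (Mcavernosa14521), another ring subunit, had a count in 106 libraries and a mean of 57.7 CPM.

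Of the pre-mRNA processing factors, PRP4 (Mcavernosa16406) and PRP6 (Mcavernosa17696), both of the particle that brings U4, U6 and U5 together, had means of 190.4 and 157.9 CPM. PRP6 had medians of 63.6 and 35.8 CPM at WFGB, 46.1 and 16.9 at EFGB, then 2.25 and 0 at PRTER, with 3.20 and 8.93 at CBC. PRP4 had a count in 41.5% of natural libraries. PRP8 (Mcavernosa16022), the scaffold of the active site, had medians of 66.2 and 36.4 CPM at WFGB and 72.6 and 0 at EFGB, and of 3.08 CPM or less in the 4 groups of PRTER and CBC. An SR splicing factor (Mcavernosa28064), with a mean of 298.2 CPM and a count in 210 libraries, had medians of 138.4 and 143.1 CPM at WFGB, 125.3 and 175.5 at EFGB, then 5.98 and 82.7 at PRTER, with 351.7 and 145 at CBC. Shallow PRTER libraries thus had its lowest median and shallow CBC libraries its highest.

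The helicases were sparser. The highest DEAD box member (Mcavernosa23036) had a mean of 139 CPM, medians of 91.6 and 49.2 CPM at WFGB and 46.6 CPM in shallow EFGB libraries, and a median of 0 in the 5 other groups. DDX31 (Mcavernosa21762), known from ribosome assembly, had a mean of 114.6 CPM with a count in 94 libraries, and DDX42 (Mcavernosa31637), a helicase that works with SF3b, 111.2 CPM with a count in 118. In the DEAH family DHX37 (Mcavernosa00240), of ribosome assembly, had a mean of 59.1 CPM, and 2 members named only as DEAH box polypeptides had 43.6 (Mcavernosa06044) and 38.6 CPM (Mcavernosa04138). An isogroup named only as an ATP-dependent RNA helicase (Mcavernosa07084) had medians of 128.2 and 175.01 CPM at WFGB and 149.5 CPM in shallow EFGB libraries. Its median was 4.29 CPM in mesophotic EFGB libraries and between 0 and 17.5 CPM in the groups of PRTER and CBC.

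**Figure D2:**
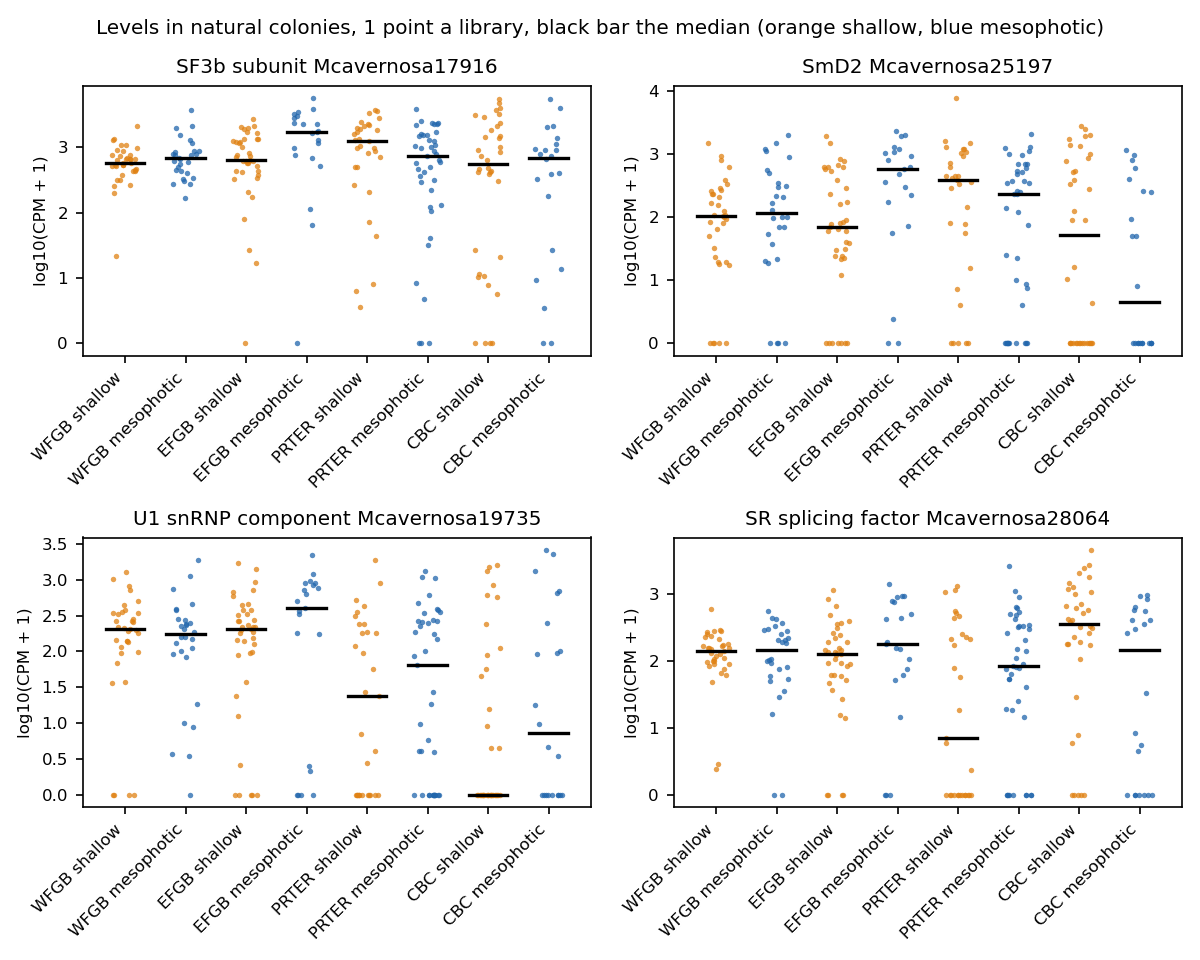
Level of 4 members in each kept natural library, as log10(CPM + 1), by site and depth (orange shallow, blue mesophotic, black bar the median). The SF3b subunit is present in nearly every library, whereas SmD2, the U1 component and the SR factor have libraries at 0 in most groups, and the U1 component has medians of 0 and 6.21 CPM at CBC.

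Depth was compared within each site in 1 fit over the 8 groups. Tests of 2 kinds were run on every tested host isogroup, with Benjamini-Hochberg adjusted p at 0.05: edgeR's quasi-likelihood test on counts and, beside it, limma on log2 CPM with a prior count of 2. A log2 difference is mesophotic minus shallow, with its standard error. The share of all isogroups called by both tests was not computed, so counts of members called by both have no such share beside them.

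At EFGB both tests called the same 4 members lower in mesophotic libraries, 3 helicases and a factor of the spliceosome. Of these, Mcavernosa01529 could be tested only because of libraries dated X-14 in their titles, all of them shallow. In all, edgeR called 11 of the 48 members (22.9%), 6 higher and 5 lower, where it called 28.1% of all tested host isogroups. By limma 9 were called (18.75%), 1 higher and 8 lower, against 25.5% of all. Neither share stood above that of all isogroups. Of all isogroups limma called 40 higher and 1079 lower, and edgeR 781 higher and 452 lower. Lower was thus the direction of most limma calls, among members and among all. The median difference was -0.03 for members and 0.42 for all tested isogroups by edgeR, and -0.55 and -0.60 by limma.

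The DEAH box helicase Mcavernosa04138 was detected in 29 of 39 shallow EFGB libraries, with a median of 76.1 and a highest of 505.7 CPM. In mesophotic libraries it was detected in 8 of 21, with a median of 0 and a highest of 105.3 CPM. The ranges overlapped. Its difference was -3.10 ± 0.88 by edgeR (adjusted p = 0.00458) and -1.79 ± 0.38 by limma (adjusted p = 0.00178). Within the libraries dated V-16 in their titles it was detected in 6 of 10 shallow (median 57.8 CPM) and 2 of 4 mesophotic libraries (median 8.46 CPM). Within libraries with no date it was found in 3 of 4 and 6 of 16, and the shallow libraries dated X-14, which have no mesophotic counterpart, had it in 20 of 25 (median 86.4 CPM).

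A DEAD box helicase (Mcavernosa01529) was detected in 19 of 39 shallow and 0 of 21 mesophotic EFGB libraries. Its level was at least 23.3-fold lower in the mesophotic libraries, with a floor of 3 counts over that group against 67 counts in the shallow one (edgeR adjusted p = 9.43e-05; limma -1.26 ± 0.37, adjusted p = 0.0124). Of the 19 shallow libraries with a count, 17 were among the 25 dated X-14 (median 29.9 CPM), 1 among the 10 dated V-16 and 1 among the 4 undated, so the signal lay almost wholly in 1 collection. It passed the detection filter only with the X-14 libraries, which are all shallow. Its p-values for depth, with or without a covariate, are therefore no separate support for a depth difference.

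CWC22 (Mcavernosa22102), the spliceosome factor that loads the exon junction complex, was detected in 21 of 39 shallow libraries, up to 475.6 CPM, and in 1 of 21 mesophotic libraries, at 35.1 CPM. It differed by -4.58 ± 1.23 by edgeR (adjusted p = 0.00279) and -1.29 by limma (adjusted p = 0.0437), and 67.5% of its counts were in 1 library. DHX38 (Mcavernosa29733), the helicase of the second splicing step (Prp16 in yeast), was found in 18 of 39 and 3 of 21. It differed by -2.55 ± 0.68 by edgeR (adjusted p = 0.00259) and -0.77 by limma (adjusted p = 0.0306), with 65.1% of its counts in 1 library.

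Mesophotic EFGB libraries also showed fewer host isogroups, a median of 1782 against 3570 in shallow ones. With that number as a covariate edgeR kept the 4 calls, at -2.81 for Mcavernosa04138 (adjusted p = 0.00797), -2.67 for Mcavernosa01529 (adjusted p = 0.000742), -4.55 for CWC22 Mcavernosa22102 (adjusted p = 0.00403) and -2.01 for DHX38 Mcavernosa29733 (adjusted p = 0.00855), whereas limma called 0 members at EFGB. Without the X-14 libraries edgeR still called Mcavernosa04138 (-3.84, adjusted p = 0.0128), CWC22 Mcavernosa22102 (-3.79, adjusted p = 0.044) and DHX38 Mcavernosa29733 (-3.27, adjusted p = 0.0065), limma called none of these (adjusted p = 0.18, 0.495 and 0.342), and Mcavernosa01529 had too few counts to test. Summed marker levels differed between the same groups in either direction. The median over shallow and mesophotic libraries was 453.6 (0 to 1327) and 212.97 CPM (0 to 1049) for 15 neuron markers, 2715 and 1895 CPM for 17 germ line markers, 3423 and 3123 CPM for 13 muscle markers, 3044 and 3356 CPM for 60 cilia markers, and 879.5 and 917.4 CPM for 33 mucus and gland markers. Nematocyte markers had a median of 0 in all groups. The part of such cells in the result was not tested.

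**Figure D3:**
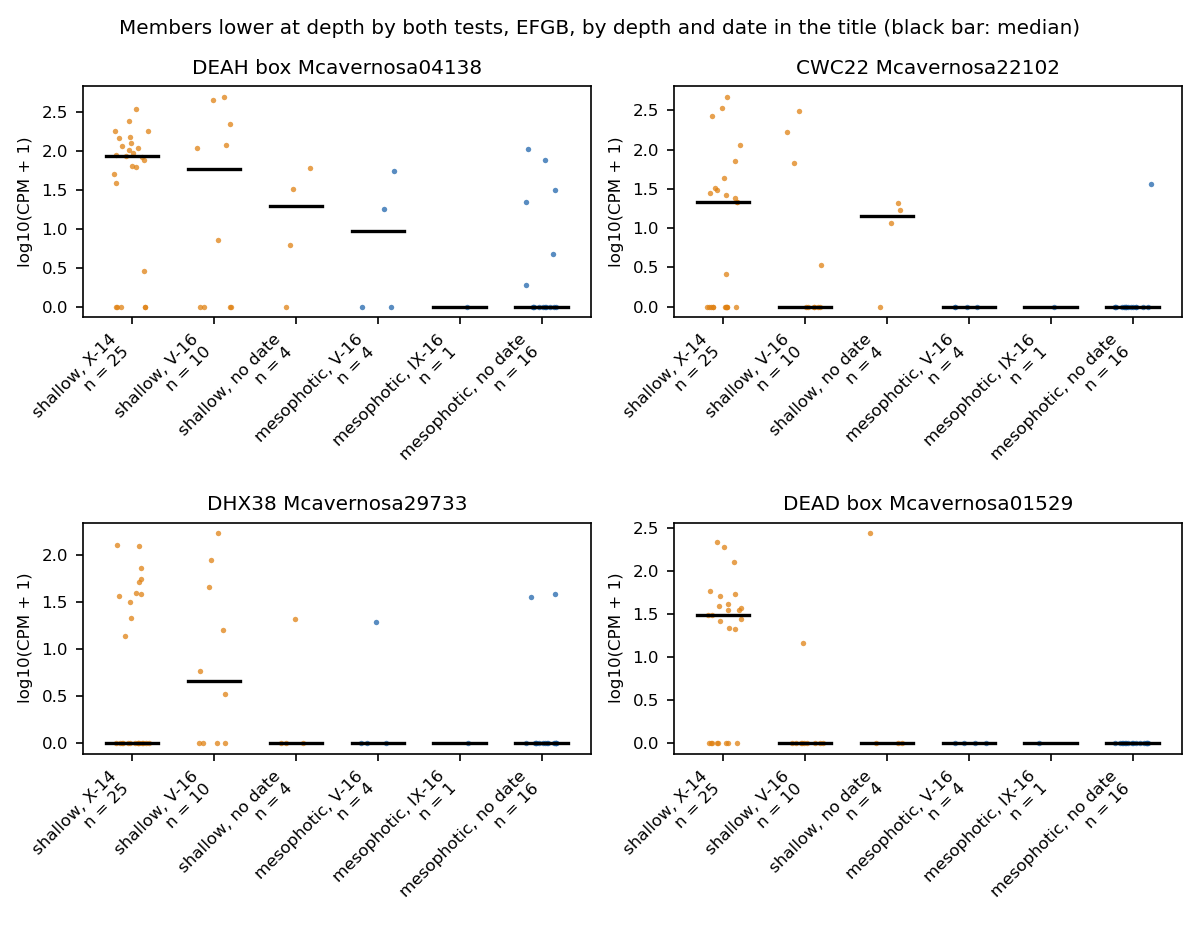
Level of the 4 members lower in mesophotic EFGB libraries by both tests, as log10(CPM + 1), 1 point a library, by depth and by the date in the library's title. Shallow libraries dated X-14 hold most of the points above 0, and the DEAD box helicase Mcavernosa01529 is at 0 in all 21 mesophotic libraries.

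The tests differed for the members with the highest levels at EFGB. The SF3b subunit Mcavernosa17916 was higher in mesophotic libraries by 2.03 ± 0.61 by edgeR (adjusted p = 0.00783), but limma gave 0.90 (adjusted p = 0.245), and edgeR scaled by host totals gave 1.08 (adjusted p = 0.202). SF3A3 Mcavernosa13731 was higher by 2.63 ± 0.83 (adjusted p = 0.0107; limma 0.58, adjusted p = 0.523), and the SR factor Mcavernosa28064 by 2.13 ± 0.74 (adjusted p = 0.0222; limma 0.60, adjusted p = 0.444). SmD2 Mcavernosa25197 was called higher by limma alone, by 1.78 ± 0.70 (adjusted p = 0.0474; edgeR 1.70 ± 0.84, adjusted p = 0.115). It had a count in 19 of 21 mesophotic and 32 of 39 shallow libraries. Within V-16 its median was 290.2 CPM in 4 mesophotic and 131.1 CPM in 10 shallow libraries. Among undated libraries it was 863.6 CPM in 16 mesophotic and 80.4 CPM in 4 shallow ones. The direction was the same in both, but each rests on a group of 4 libraries. In the scaling used by edgeR the median of all isogroups lay at 0.42, against -0.55 by host totals, so values near that shift carry no direction.

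Of the other members that edgeR alone called at EFGB, DHX37 Mcavernosa00240 (3.96 ± 0.98, adjusted p = 0.00119), PRP31 Mcavernosa25198 (3.20 ± 0.86, adjusted p = 0.00288), a protein of the U4 and U6 particle, and CWC25 Mcavernosa15918 (2.67 ± 0.90, adjusted p = 0.0179), which acts at the first splicing step, each had over 50% of their counts in 1 library (53.7%, 74.8% and 65.2%). PRP31 had the opposite sign by limma (-0.57, adjusted p = 0.242). DDX46 Mcavernosa08739 (Prp5 in yeast), which readies U2 for the branch site, was lower by -1.95 ± 0.77 (adjusted p = 0.0429; limma -0.83, adjusted p = 0.0629). Without the X-14 libraries DDX46 differed by -0.27 by edgeR (adjusted p = 0.897) and -0.12 by limma (adjusted p = 0.937). With the number of detected isogroups as a covariate edgeR gave -0.74 (adjusted p = 0.686). Those that limma alone called lower were a DEAD box member (Mcavernosa00370, -1.03, adjusted p = 0.0325, found in 5 of 21 and 26 of 39), DDX60 (Mcavernosa05790, -1.01, adjusted p = 0.0413, 7 of 21 and 26 of 39), a helicase close to translation factor eIF4A (Mcavernosa13710, -0.90, adjusted p = 0.0266, 8 of 21 and 28 of 39) and PRP38 (Mcavernosa21098, -0.99, adjusted p = 0.0397, 2 of 21 and 17 of 39), which acts as the spliceosome is activated. PRP38 passed the detection filter only with the X-14 libraries, all shallow, so its p-value is no separate support for a depth difference. By family, edgeR called 2 of 9 DEAD box members (both lower), 3 of 6 DEAH box (1 higher), 0 of 3 other helicases, 1 of 9 pre-mRNA processing factors (higher), 0 of 6 snRNP proteins and 5 of 15 splicing factors (4 higher). Beside these stand 28.1% of all isogroups called by edgeR at EFGB, and the families are too small to set apart from that share.

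At the 3 other sites limma called no member. At PRTER edgeR called 12 (6 higher, 6 lower; 25% of members and 29.2% of all isogroups), and 3 members had an unadjusted limma p under 0.05, as did 444 of all 4383 isogroups (limma called 1.03% of all). The smallest p belonged to DDX46 Mcavernosa08739, found in 12 of 41 mesophotic libraries, up to 699.4 CPM, and in 1 of 31 shallow libraries, at 18.9 CPM. It was higher by 6.12 ± 0.80 (adjusted p = 8.58e-11), while limma gave 0.77 ± 0.31 (adjusted p = 0.284), and 1 library held 42.9% of its counts. A CWC22 copy (Mcavernosa22101, 5.20 ± 1.04, adjusted p = 1.63e-05; 12 of 41 against 3 of 31), DDX60 (Mcavernosa05790, 4.80 ± 0.98, adjusted p = 2.18e-05; 11 of 41 against 2 of 31) and an snRNP polypeptide (Mcavernosa13885, 4.63 ± 0.86, adjusted p = 2.77e-06; 8 of 41 against 2 of 31) were also higher. Lower were PRP31 (Mcavernosa25198, -4.44 ± 0.83, adjusted p = 3.2e-06; 4 of 41 against 8 of 31), PRP38 (Mcavernosa21098, -2.71 ± 0.62, adjusted p = 0.000165), DDX42 (Mcavernosa31637, -2.72 ± 0.90, adjusted p = 0.0134; 17 of 41 against 15 of 31) and an RPRD protein (Mcavernosa03170, -3.83 ± 0.86, adjusted p = 0.000133), of a family that binds the tail of RNA polymerase II. Of the 12, 5 had over 50% of their counts in 1 library.

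At CBC edgeR called 14 members (5 higher, 9 lower; 29.2% of members and 31.3% of all isogroups), and 13 of these had over 50% of their counts in 1 library. The RPRD protein Mcavernosa03170 was found in 0 of 22 mesophotic and 6 of 36 shallow libraries, with 96.4% of its counts in 1 of them (at least 51.6-fold lower, from 329 counts; edgeR adjusted p = 3.55e-06, limma adjusted p = 0.913). PRP4B kinase (Mcavernosa10827), which phosphorylates spliceosome proteins, was higher by 4.09 ± 0.87 (adjusted p = 4.07e-05; 5 of 22 against 3 of 36; 82.1% in 1 library). The DEAD box helicase Mcavernosa01529, at 0 in mesophotic EFGB libraries, was higher in mesophotic CBC libraries by 3.37 ± 0.73 (adjusted p = 5.95e-05; 5 of 22 against 5 of 36; 50.5%). The lowest limma adjusted p of a member was 0.334, with 0.365% of all isogroups called. By limma 3 members were at an unadjusted p under 0.05, and so were 339 of all 4383 isogroups.

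At WFGB edgeR called 4 members, all higher in mesophotic libraries (8.33% of members and 7.28% of all isogroups), and limma 0 (0.297% of all, with 6 members and 611 of all 4383 isogroups at an unadjusted p under 0.05). PRP38B (Mcavernosa19360) differed by 4.21 ± 1.10 (adjusted p = 0.00717), found in 14 of 28 mesophotic and 18 of 35 shallow libraries. PRP4 (Mcavernosa16406) differed by 3.68 ± 1.05 (adjusted p = 0.0158; 15 of 28 against 15 of 35; limma 0.56, adjusted p = 0.691), and by 1.94 (adjusted p = 1) with host-total scaling. The other 2, a DEAH box member (Mcavernosa11432) and a polypyrimidine tract factor (Mcavernosa25343), had 73.4% and 86.2% of their counts in 1 library and the opposite sign by limma. For the mean of the 4 sites edgeR called 12 members (3 higher, 9 lower; 25%, against 26.3% of all) and limma 0 (0.821% of all, with 6 members and 690 of all 4383 isogroups at an unadjusted p under 0.05). PRP38 (Mcavernosa21098) was lower by -1.81 ± 0.36 (edgeR adjusted p = 1.89e-05) and had the smallest limma adjusted p, 0.0942. PRP38 passed the detection filter only with the X-14 libraries, which are all shallow. Its p-values are therefore no separate support for a depth difference. The DEAH box helicase Mcavernosa04138 followed at -1.54 ± 0.39 (edgeR adjusted p = 0.001; limma adjusted p = 0.0955).

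**Figure D4:**
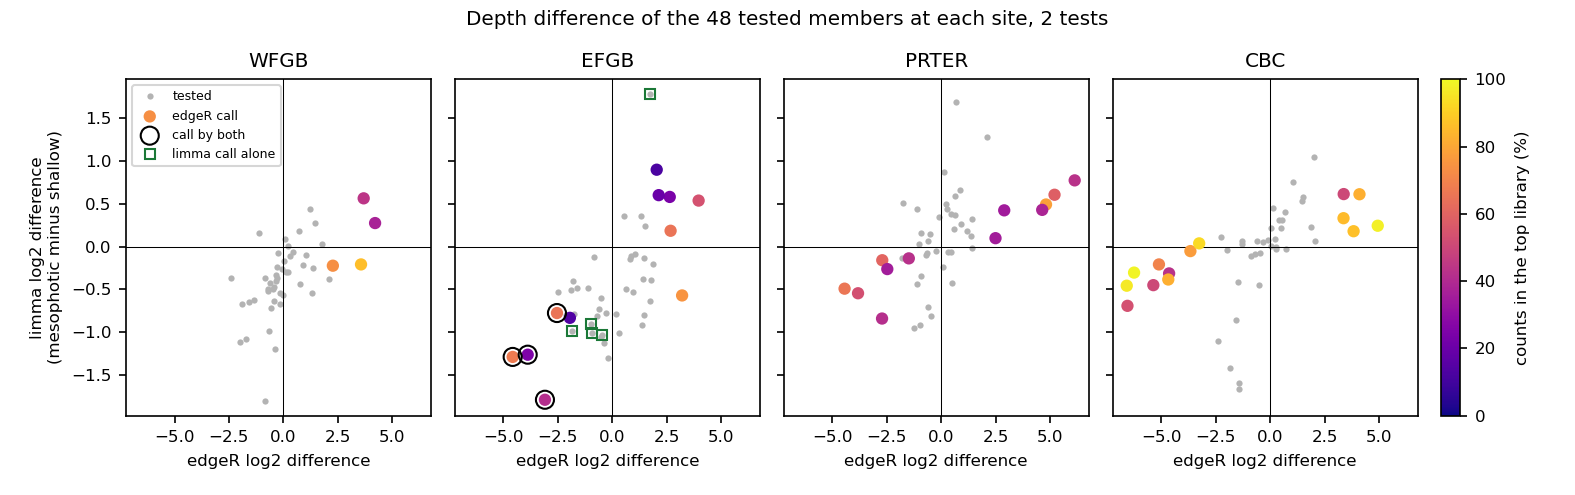
Depth difference (log2, mesophotic minus shallow) of the 48 tested members by edgeR (horizontal) and limma (vertical), 1 panel a site, with colour for the percent of a member's counts in its top library, circles for members called by both tests and green squares for those called by limma alone. The 4 circles are all at EFGB, and the largest edgeR differences at PRTER and CBC lie near 0 by limma.

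The depth difference itself varied with site. An F test of depth by site called 31 members by edgeR (64.6%, against 56.8% of all isogroups) and 5 by limma (12.6% of all), and these 5 were called by both. DDX46 Mcavernosa08739 (edgeR adjusted p = 1.58e-10, limma 0.0485) differed by 6.12 at PRTER and -1.95 at EFGB by edgeR, with 0.20 at WFGB and -0.36 at CBC. Without the X-14 libraries its edgeR difference at EFGB was -0.27 (adjusted p = 0.897). The DEAD box helicase Mcavernosa01529 (adjusted p = 9.98e-09 and 0.0439) was at 0 in mesophotic EFGB libraries and differed by -0.71 at WFGB, -1.49 at PRTER and 3.37 at CBC. Mcavernosa01529 passed the detection filter only with the X-14 libraries, all shallow, so these p-values are no separate support. The DEAH box helicase Mcavernosa04138 (8.68e-05 and 0.0193) differed by -0.57 at WFGB, -3.10 at EFGB, 1.17 at PRTER and -3.67 at CBC, the last with 77% of its counts in 1 library and a limma difference of -0.05. SF3A3 Mcavernosa13731 (0.00445 and 0.00867) differed by limma by -1.80 ± 0.64 at WFGB, 0.58 ± 0.68 at EFGB, 1.69 ± 0.60 at PRTER and -1.42 ± 0.68 at CBC, with edgeR of the same sign at each site. PRP8 Mcavernosa16022 (0.0221 and 0.047) differed by limma by -0.63 at WFGB, -0.78 at EFGB, 1.28 at PRTER and 0.11 at CBC. Of these 5, SF3A3 had a count in the largest share of natural libraries, 68.4%.

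Sites differed for most members. Between sites edgeR called 39 (81.3%, against 78.4% of all isogroups), limma 36 (80.2% of all), and both called 30. DDX24 Mcavernosa10858, a helicase of ribosome assembly, had the smallest p (edgeR adjusted p = 4.19e-16, limma 7.08e-09). It was detected in 33 of 35 shallow and 23 of 28 mesophotic WFGB libraries (medians 54.0 and 46.1 CPM), 30 of 39 and 12 of 21 EFGB libraries (26.9 and 1.55 CPM), 7 of 31 and 13 of 41 PRTER libraries and 11 of 36 and 6 of 22 CBC libraries, with medians of 0 at the last pair of sites. DHX38 Mcavernosa29733 (0.000191 and 8.54e-10) was found in 25 of 35 and 17 of 28 WFGB libraries, against 3 of 31 and 2 of 41 at PRTER and 6 of 36 and 4 of 22 at CBC. CBC and PRTER libraries fell in barcode runs of their own, as inferred from repeats of barcodes. Titles were dated III-16 at CBC and VIII-13 or undated at PRTER, dates that no WFGB or EFGB library carries. For CBC and PRTER, site, run and, where given, date cannot be told apart. WFGB and EFGB share 5 runs.

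Between these 2 sites, EFGB minus WFGB over both depths, edgeR called 19 members (15 higher, 4 lower at EFGB; 39.6%, against 24.3% of all). By limma 6 were called, all lower (12.5%, against 32.6% of all). Of all isogroups limma called 26 higher and 1404 lower, and edgeR 724 higher and 341 lower. The median difference was 0.84 for members and 0.33 for all isogroups by edgeR, and -0.35 and -0.47 by limma. Both tests called 4 members, all lower at EFGB, the direction of nearly all limma calls. These were the DEAD box helicase Mcavernosa01529 (-2.76 ± 0.50, edgeR adjusted p = 2.37e-05; limma -1.13, adjusted p = 0.000789; found in 19 of 60 and 35 of 63 libraries), DHX38 Mcavernosa29733 (-1.08 ± 0.40, adjusted p = 0.0356; limma adjusted p = 0.00259; 21 of 60 and 42 of 63), CWC22 Mcavernosa22102 (-1.69 ± 0.64, adjusted p = 0.0403; limma adjusted p = 0.0325; 22 of 60 and 35 of 63) and DDX46 Mcavernosa08739 (-1.28 ± 0.49, adjusted p = 0.0421; limma adjusted p = 0.0284; 22 of 60 and 36 of 63). These comparisons share libraries with the depth comparison at EFGB, so they are no separate evidence. limma alone called SF3b subunit 1 Mcavernosa05998 (-0.78, adjusted p = 0.0251; 39 of 60 and 57 of 63) and DDX24 Mcavernosa10858 (-0.79, adjusted p = 0.0192; 42 of 60 and 56 of 63). The abundant SF3b subunit Mcavernosa17916 was higher at EFGB by edgeR (1.80 ± 0.44, adjusted p = 0.00129) but by 0.35 (adjusted p = 0.519) by limma. With the barcode run as a term in edgeR, Mcavernosa01529 stayed called (-2.43, adjusted p = 0.000448) and DDX46 Mcavernosa08739 (adjusted p = 0.209), DHX38 Mcavernosa29733 (0.0684) and CWC22 Mcavernosa22102 (0.0539) did not. With the number of detected isogroups as a covariate Mcavernosa01529 again stayed (adjusted p = 0.000989) and the others did not (adjusted p = 0.681, 0.617 and 0.174). With host-total scaling edgeR called 2 members, and without the X-14 libraries 0. Mcavernosa01529 passed the detection filter only with the X-14 libraries, so it could not be tested without them. Its p-values between these sites, with or without the run or the covariate, are therefore no separate support for a site difference.

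In the experiment the transplants were the subject, set against controls from both depths. limma called 0 of the 56 tested members in all 12 comparisons of arms and times, and the edgeR calls below rest mostly on single libraries. Median shares of host counts on members were 0.515%, 0.719% and 0.672% in transplants at baseline, 6 and 12, 0.490%, 0.655% and 0.484% in mesophotic controls and 0.490%, 0.810% and 0.553% in shallow controls. The share was thus higher at time 6 in the median of every arm. The median of members detected went from 35 through 23.5 to 21 in transplants, from 29 through 28 to 44 in mesophotic controls and from 37 through 19 to 35 in shallow controls. The median share of counts on the algae was 10.9%, 6.26% and 0.550% in the transplants, 7.81%, 4.49% and 11.1% in mesophotic controls and 8.43%, 3.37% and 8.71% in shallow controls.

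At time 6, edgeR called 3 members between transplants and mesophotic controls (2.61% of all isogroups; limma 0% of all, with 2 members at an unadjusted p under 0.05 and 9 by edgeR). All 3 had over 50% of their counts in 1 library, and the count ranged from 1 to 5 without 1 library. It called 2 between transplants and shallow controls (3.76%; limma 0%, with 1 and 9 members) and 1 between the controls (5.63%; limma 0%, with 2 and 6 members). PRP4B kinase Mcavernosa10827 had CPM of 0, 0, 0, 0, 4.67, 155.6, 155.6 and 833.7 in the 8 transplants at time 6. It was at 0 in all 7 mesophotic controls and in 9 of 10 shallow controls, with 20.5 CPM in the other. The groups overlapped at 0. The level was at least 69.4-fold higher in transplants than in mesophotic controls, from 163 counts against a floor of 3 over the group (edgeR adjusted p = 0.0271; limma 1.90, adjusted p = 0.799), and differed by 6.28 ± 1.62 from shallow controls (edgeR adjusted p = 0.0183; limma adjusted p = 0.757). The first call held in each of 45 fits without 1 library (highest adjusted p = 0.0486), and the second was lost without WFGB transplant replicate 1 (4.77). At time 12 its values were 0, 0, 0, 1.37 and 307.2 CPM in transplants, 0, 0, 0, 21.2, 39.7 and 48.5 in mesophotic controls and at most 134.3 in shallow controls, and it was not called. SF3A1 Mcavernosa03211, another subunit of SF3a, was at 140.9 and 779.7 CPM in 2 of 7 mesophotic controls at time 6 and at 0 in the other 5 and in all 10 shallow controls. It was at least 81.9-fold higher (edgeR adjusted p = 0.0112; limma adjusted p = 0.914).

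At time 12, edgeR called 2 members between transplants and mesophotic controls (9.64% of all isogroups; limma 0.0204%), 9 between transplants and shallow controls (4 higher, 5 lower; 16.8%; limma 0.0612%) and 0 between the controls (0.0204%; limma 0%; 7 members at an unadjusted p under 0.05 by edgeR and 3 by limma). Between transplants at 12 and at 6 it called 8 (3 higher, 5 lower; 11.2%; limma 0.0204%). Of the 9, 8 had over 50% of their counts in 1 library, as did all of the 8. Without any 1 of the 5 transplants at time 12 the count of 9 became 0 or 1 and the count of 8 became 1 or 2, and without shallow control replicate 2 of EFGB the 9 became 5. The 2 calls against mesophotic controls became 0 without any 1 of the 5 transplants. The median difference of all isogroups was -1.10 and -1.15 for the transplants at 12 against the mesophotic and shallow controls and -0.99 against time 6, so differences of that size carry no direction. Transplants at 12 were 5 libraries with a median of 390284 host counts and 1633 detected host isogroups, against 116697 and 3221 in shallow controls.

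DDX23 (Mcavernosa14183), the helicase that swaps U1 for U6 at the start of the intron (Prp28 in yeast), was at 0 in all 5 transplants at time 12. In shallow controls it was at 0, 0, 0, 10.3, 29.0, 124.4, 124.7, 171.4 and 494.5 CPM, and in transplants at time 6 at 0, 0, 0, 8.01, 77.8, 82, 102.9 and 867.2 CPM. Mesophotic controls at 12 had 0, 0, 0, 21.2, 64.6 and 79.3 CPM, and the transplants' own baselines 0, 0, 0, 18.3, 33.9, 49.8 and 91.5 CPM. Every comparison group thus held 3 libraries at 0 and 3 or more above it. It was at least 112.2-fold lower than in shallow controls (edgeR adjusted p = 0.036; limma -2.30, adjusted p = 0.386) and at least 139.9-fold lower than at time 6 (adjusted p = 0.0403; limma adjusted p = 0.855), with 88.6% and 93.1% of the counts in 1 library. Each call was lost in 5 of 45 fits without 1 library, those without 1 of the 5 transplants.

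DHX36 (Mcavernosa22534), a helicase that unwinds G-quadruplexes, was called higher in transplants at 12 in all 3 comparisons, by 5.43 against mesophotic controls (adjusted p = 0.0497), 4.81 against shallow controls (adjusted p = 0.036) and 4.39 against time 6 (adjusted p = 0.0403). The 5 transplants had 0, 0, 0, 1.37 and 115.3 CPM, so the calls came from 1 library (EFGB replicate 2), which held 90.0% or more of the counts compared. Without it the differences were 0.07, -0.58 and -0.97. Groups did not overlap for 1 of the 56 members in 1 of the 12 comparisons, transplants against mesophotic controls at 12, where 2% of all tested isogroups did not overlap either. This was the SR factor Mcavernosa03659, at 0 to 8.23 CPM in the 5 transplants at 12 and 26.3 to 721.5 CPM in the 6 mesophotic controls. It was not called (edgeR -5.80 ± 2.31, adjusted p = 0.0633; limma -2.68 ± 1.15, adjusted p = 0.234), and shallow controls at 12 had 0 to 69.1 CPM.

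The SF3b subunit Mcavernosa17916 was measured best, with a count in every library of times 6 and 12. Transplants at 12 had 52.0, 315.5, 420.2, 1058 and 1821 CPM. Mesophotic controls at 12 had 17.6, 19.5, 177.7, 210.4, 254.4 and 436.1 CPM, and shallow controls at 12 from 331.7 to 2251 CPM with a median of 666.3. At time 6 it was between 122.996 and 1824 CPM in transplants, 290.3 and 1478 in mesophotic controls and 370.9 and 3433 in shallow controls. Mesophotic controls at 12 were the lowest group, and they overlapped with each of the others. The differences were 2.97 ± 1.23 between transplants and mesophotic controls at 12 (edgeR adjusted p = 0.0718) and -3.26 ± 1.21 between mesophotic controls at 12 and 6 (adjusted p = 0.131), and neither passed.

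**Figure D5:**
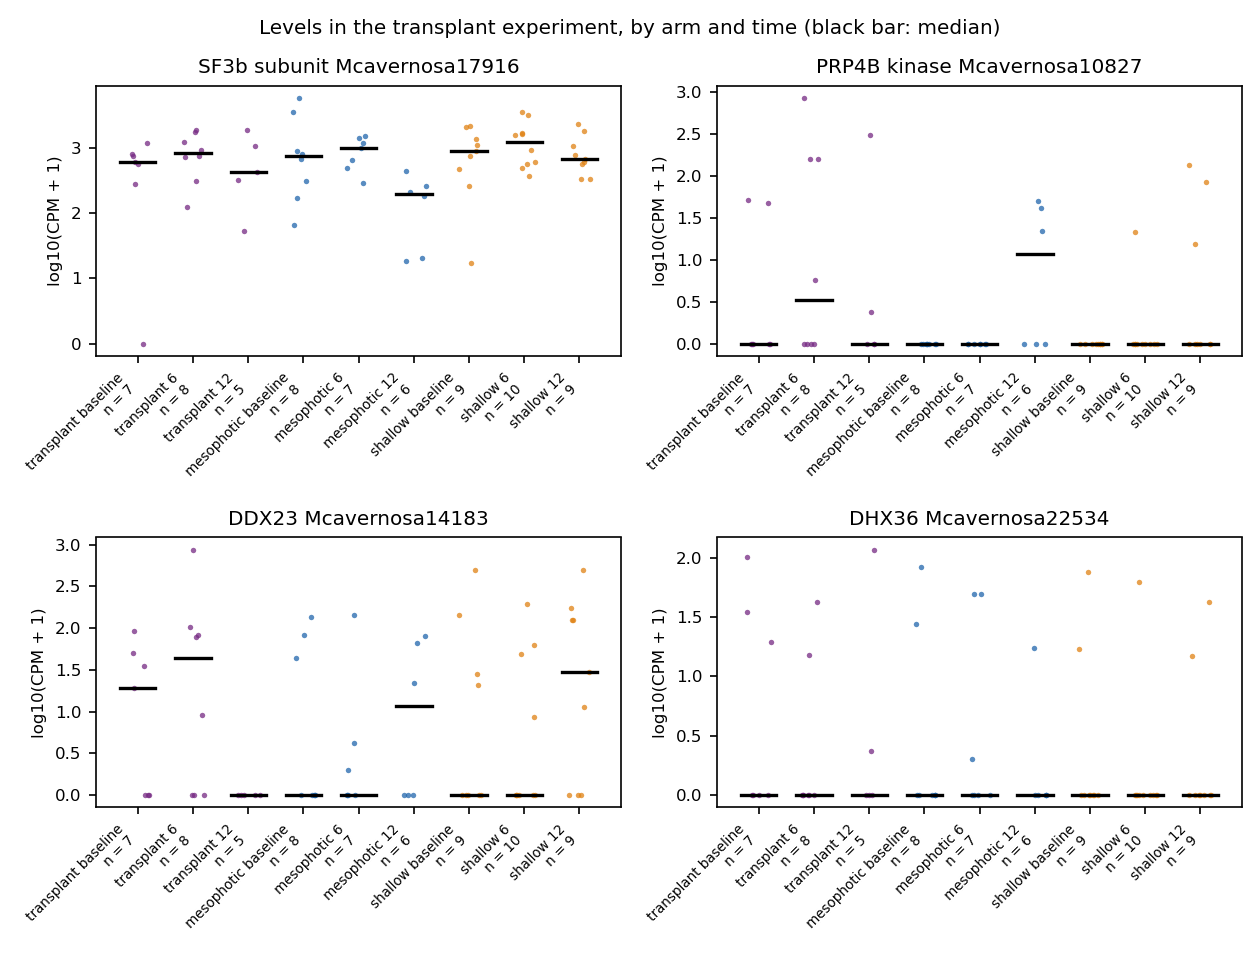
Level of 4 members by arm and time, as log10(CPM + 1), 1 point a library. The SF3b subunit is above 0 in all libraries of times 6 and 12, PRP4B kinase is above 0 in 4 of 8 transplants at time 6, DDX23 is at 0 in all 5 transplants at time 12, and DHX36 rests on 1 transplant at 12.

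Within arms over time the other calls were few. Between shallow controls at 12 and 6 edgeR called 2 members (6.04% of all isogroups; limma 0.551%), and between shallow controls at 6 and baseline 1 (5.74%; limma 2.67%). That was SF3A1 Mcavernosa03211, at 18.7, 27.0 and 350.8 CPM in 3 of 9 baselines and 0 in all 10 libraries at 6 (at least 109.7-fold lower, adjusted p = 0.0115), and found again in 4 of 9 at 12 (at least 25.7-fold higher, adjusted p = 0.0334). The call at 6 rested on 1 baseline, EFGB shallow replicate 1, which held 97.1% of the counts, and without it the call was lost (-1.57, adjusted p = 0.223). The call at 12 was lost without WFGB shallow control replicate 2, 3 or 4 at time 6, or replicate 1 at time 12. By edgeR 0 members were called between mesophotic controls at 12 and 6 (0.0204%; limma 0%; 11 members at an unadjusted p under 0.05 by edgeR and 4 by limma), between transplants at 6 and baseline (0.0612%; limma 0%; 9 and 5) and between mesophotic controls at 6 and baseline (0%; limma 0%; 9 and 0). In the same order, 774, 779 and 770 of all 4898 tested isogroups were at an unadjusted p under 0.05 by edgeR. By limma the counts were 457, 637 and 200. Comparisons that share a group of libraries, such as the 3 that hold transplants at 12, are not independent of each other.

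Other genes of RNA processing, listed by name, were as sparse. The shares of all isogroups called by edgeR were 28.1% at EFGB, 29.2% at PRTER, 31.3% at CBC and 7.28% at WFGB. Of the hnRNP and RNA-binding motif proteins, which coat transcripts, 15 of 39 with counts could be tested. For these edgeR called 2 higher and 1 lower in mesophotic libraries at EFGB, 4 higher and 2 lower at PRTER, 2 higher and 4 lower at CBC and 2 higher and 1 lower at WFGB. Of the RNA decay factors 11 of 31 were tested, with 1 higher at EFGB, 2 higher and 2 lower at PRTER, 3 higher at CBC and 0 at WFGB. Of the 3' end formation factors 6 of 17 were tested, with 1 lower at EFGB and at CBC and 1 higher at PRTER. Of the exon junction and export factors 1 of 8 was tested and was higher at CBC. By limma, which called 25.5% of all isogroups at EFGB, 1, 1, 3 and 1 members of these lists were lower there and 0 were called at the other sites. Called by both tests at EFGB were an RNA-binding motif protein (Mcavernosa28742, -4.73 ± 1.27, edgeR adjusted p = 0.00278; limma -1.63, adjusted p = 0.00769) and a poly(A)-binding protein interacting protein (Mcavernosa28296, -4.29 ± 1.10, adjusted p = 0.00173; limma -1.78, adjusted p = 0.00632).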

How the data were processed

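The deposited table holds raw counts of 3' tags per isogroup, made by the authors. Each column was matched to a library by its name (0 columns unmatched), and names came from the authors' deposited annotation. Which aligner, counter and reference the authors used is not given in the sources used here. Host and symbiont isogroups were separated by their identifiers, and CPM was computed within the host total.

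Host counts were tested with edgeR 4.0.16 in R 4.3.3 (TMMwsp scaling, robust quasi-likelihood test, 8 groups of site and depth in 1 fit, or arms by time in another), over isogroups with a count in at least 20% of fitted libraries, with Benjamini-Hochberg adjustment over all of these. limma 3.58.1 (trend, robust) and DESeq2 1.42.0 were alternatives, and the standard error of edgeR is the log2 difference divided by the root of F. The code was tested on simulated data.

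Members and lists were chosen with earlier results of these data known. Named members are the 3 with the highest mean of each family, up to 5 called each way per comparison with the smallest p, and those called by both tests. Others were named after their values were seen. The EFGB minus WFGB comparison, and limma combined with a covariate, a run or fewer libraries, were added after seeing the data. Baselines are natural libraries whose title tag recurs, read as the same colony. Barcode runs were inferred from repeats of barcodes in the labels. Counts include no check for PCR copies, so bounds cover counting error only.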

Additional observations from a re-analysis of the deposited data

Results flagged for a closer look

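In 20 of the 72 groups of experiment libraries examined, each 1 measure in 1 arm and time, the highest library stood apart from the others. Chance gives about 1 in 20 where values are normally distributed, which sparse counts with many libraries at 0 are not, so the number of such groups carries no weight. The gap to the next library was too large a part of the group's range for its size (Dixon's test). For the DEAD box helicase Mcavernosa23036 these libraries had 1974 CPM among transplant baselines, 816.5 in transplants at 6, 696.8 among mesophotic baselines and 1499.6 in shallow controls at 12. For DHX37 Mcavernosa00240 they had 580.4 CPM among transplant baselines, 1.30 in transplants at 6, 454.8 in mesophotic controls at 6, 111.9 among shallow baselines and 351.3 in shallow controls at 12. For the branch site isogroup Mcavernosa13121 they had 2542 CPM in transplants at 6, 2564 among mesophotic baselines, 2524 in mesophotic controls at 6, 1527 in mesophotic controls at 12, 986.7 among shallow baselines and 1333 in shallow controls at 12. For the helicase Mcavernosa07084 they had 156.4 CPM in transplants at 12, 286.7 in shallow controls at 6 and 663.4 in shallow controls at 12, and for SmD2 Mcavernosa25197 2827 CPM in transplants at 6. The share of host counts on all members had 1 such library, at 1.35%, among mesophotic controls at 6.

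Depth differences that differed between sites, by the F test of depth by site in edgeR, were found for DHX37 Mcavernosa00240 (adjusted p = 6.31e-07; limma 0.713), DDX60 Mcavernosa05790 (2.82e-06; limma 0.105) and PRP31 Mcavernosa25198 (8.07e-10; limma 0.96). They were also found for the 5 members that limma called too, DDX46 Mcavernosa08739 (1.58e-10), Mcavernosa01529 (9.98e-09), Mcavernosa04138 (8.68e-05), SF3A3 Mcavernosa13731 (0.00445) and PRP8 Mcavernosa16022 (0.0221).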

How the results depend on the processing

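Counts of called members depended on the tool, the filter and the libraries used. The limits are shallow libraries, sparse counts held by single libraries, and detection that differs between groups. Over 79 named member results and the alternatives other than leaving out 1 library, 402 of 857 values kept direction and call, 429 lost the call and 26 reversed. For limma alone 8 kept it, 64 lost it and 7 reversed. Without 1 library at a time 1073 of 1266 values kept it, 187 lost it and 6 reversed. The cause of these changes was not tested.

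Against 12 (mean over sites), 4 (WFGB), 11 (EFGB), 12 (PRTER), 14 (CBC), 31 (depth by site), 19 (EFGB minus WFGB) and 39 (between sites) calls by edgeR, these counts changed by over 1.5 times. Without the filter they were 29, 23, 40, 45, 36, 74, 40 and 82. Without X-14 libraries they were 6, 0, 3, 6, 9, 15, 0 and 23. With at least 100000 host counts they were 2, 0, 2, 0, 4, 5, 0 and 8. The fit without the filter tested all 139 members with counts rather than 48, and fewer libraries also changed which members were tested. Shares of all isogroups called are not set beside the counts in this section, so the counts are no result about the members. With DESeq2 the mean had 3, EFGB 7, PRTER 5, CBC 8 and EFGB minus WFGB 6. With the barcode run as a term WFGB had 1, EFGB minus WFGB 7 and between sites 23, and with the collection date WFGB had 2, EFGB 6 and PRTER 7. With the number of detected isogroups as a covariate WFGB had 1, EFGB 7, depth by site 20, EFGB minus WFGB 5 and between sites 22. With TMM WFGB had 2, EFGB 6 and EFGB minus WFGB 8. With host-total scaling the mean had 6, WFGB 0, EFGB 3, PRTER 7, depth by site 13 and EFGB minus WFGB 2. Fitted alone, PRTER had 2 and CBC 6. limma called 0 for the mean, WFGB, PRTER and CBC, 5 for depth by site and 6 for EFGB minus WFGB. With the run it called 0 in those 4, 5 at EFGB, 3, 4 and, between sites, 8. With the covariate it called 0 there, at EFGB and for EFGB minus WFGB, and 1 and 8 for depth by site and between sites. Without X-14 it called 0 for the mean, the 4 sites and depth by site, 1 for EFGB minus WFGB and 19 between sites.

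In the experiment limma called 0 in every comparison, against 3, 2 and 1 at time 6 (transplant against mesophotic, transplant against shallow, mesophotic against shallow), 2, 9 and 0 at time 12, 8, 0 and 2 between 12 and 6 (transplant, mesophotic, shallow) and 0, 0 and 1 between 6 and baseline. DESeq2 gave 5 and 2 for transplant against mesophotic and mesophotic against shallow at 12, 2 for mesophotic 12 against 6, and 3 and 1 for transplant and mesophotic at 6 against baseline. The detected-isogroup covariate gave 7, 5 and 3 at time 6, 1 for mesophotic against shallow at 12, and 2 and 1 for transplant and mesophotic at 6 against baseline. No filter, with more members tested than the 56, gave 7, 10 and 5 at time 6, 0 and 1 for the transplants at 12, 4 and 10 for transplant and shallow 12 against 6, and 5 for shallow 6 against baseline. TMM gave 1 for transplant against shallow at 6 and 0 for transplant against mesophotic at 12. Host-total scaling gave 1 for transplant against shallow at 6, 1 for shallow 12 against 6 and 2 for shallow 6 against baseline. Without the time 6 colonies dated IX-16, transplants at 6 had 1 and 1, and shallow 6 against baseline 2. Leaving out 1 library at a time (each baseline too where a baseline is compared, which was added after seeing the data) gave 1 to 5, 0 to 4 and 1 to 4 at time 6, 0 to 2, 0 to 10 and 0 to 0 at time 12, 1 to 11, 0 to 0 and 0 to 7 between 12 and 6, and 0 to 4, 0 to 0 and 0 to 7 between 6 and baseline.

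Recurring title tags were checked as a pairing. Of 18 pairs at 6 and 12, 3 had a correlation of deviations over 0.1 (-0.064 to 0.236), as did 5 of 17 at baseline and 12 and 5 of 23 at baseline and 6 (highest 0.261), against 8.00% of pairs of different colonies. These were 16.7%, 29.4% and 21.7% of the pairs, each above the share for different colonies. A rule that every pair pass 0.1 was not met, so the main fits did not use the tags as pairs. That rule does not show that libraries of 1 tag are independent, though the main fits treated them so. With colony as a replicate block in limma (consensus correlation 0.083) 0 members were called in the 7 comparisons of arms and times that edgeR had called, apart from 1 for shallow 6 against baseline. With colony as a fixed replicate block in edgeR 0 were called for transplant 12 against 6, shallow 12 against 6 and shallow 6 against baseline.

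Reversed values were as follows. For the mean over sites, Mcavernosa08739 was -0.074 by limma and -0.067 with the run, Mcavernosa22101 -0.062 by limma, -0.027 with the covariate and -0.019 with the run, and Mcavernosa24180 -0.063, -0.019 and -0.043, and -0.78 by edgeR with the collection. At WFGB Mcavernosa11432 was -0.22 by limma, -0.066 with the covariate, -0.082 with the run and -0.12 without X-14. Mcavernosa25343 was -0.21, -0.22, -0.20 and -0.0026 in the same order, and -1.05 by edgeR with the covariate. At EFGB Mcavernosa25198 was -0.57, -0.12, -0.52 and -0.31 in that order. For EFGB minus WFGB Mcavernosa23034 was -0.27 by limma and -0.26 with the run, and Mcavernosa28064 -0.23 by limma without X-14. Leaving out 1 library reversed 6 values, whose ranges over the 45 fits follow. For transplants at 12 against shallow controls Mcavernosa03170 had -1.83 to 7.49 (lowest without 1 EFGB transplant), Mcavernosa11432 -2.38 to 5.28 and Mcavernosa22472 -2.44 to 6.85 (without 1 WFGB transplant) and Mcavernosa22534 -0.58 to 5.37 (without another EFGB transplant). Against time 6 Mcavernosa06044 had -0.92 to 9.18 and Mcavernosa22534 -0.97 to 4.97 (without those EFGB transplants), and Mcavernosa22534 was -1.41 with the fixed replicate block.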

Other observations

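The Cladocopium symbionts carry genes of the same names. The same words found 350 symbiont isogroups. In the libraries with at least 20000 symbiont counts they took a median of 0.0408% of symbiont counts (0% to 1.49%), and 4 had a count in at least 20% of these libraries. The highest were an SR splicing factor (Cladocopium214291, a mean of 418 CPM of symbiont counts, found in 56 libraries) and an snRNP-associated protein (Cladocopium167926, 346, found in 28).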
